A study of Mus musculus with 8 samples.

Results

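Cpa3, Hdc, Ms4a2, Fcer1a, Mcpt8, Prss34 and Gzmb, 7 of the 32285 features in the count tables, were examined by name as genes of basophils and mast cells. Their raw counts of unique molecular identifiers (UMIs) were followed over cell lineages, single cells and ages, and all 7 were counted in each of 8 libraries. Each library held bone marrow cells, negative for lineage markers and positive for c-Kit, of a single wild-type mouse, with no other treatment or allele in the labels, which do not state a strain for these mice. The groups were young (14 weeks), middle-aged (50 weeks), old (78 weeks for the male, 79 weeks for the female) and very old (95 weeks), with 1 male and 1 female in each. The old and very old mice, 4 in all, are called older below. By their labels, the 2 libraries of 95 weeks belong to a library series of their own, and that series and the age cannot be told apart.

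Basophils and mast cells are granulated cells of allergy and of defence against parasites. Both carry the high-affinity receptor for immunoglobulin E (IgE), and crosslinking of bound IgE makes them release histamine, proteases, lipid mediators and cytokines. Mast cells leave the marrow as progenitors and mature in tissues, whereas basophils mature in the marrow, so a marrow sample without mature lineage cells holds mostly the early stages of both. Fcer1a encodes the receptor chain that binds IgE, and Ms4a2 encodes its beta chain, which amplifies the signal. Hdc encodes histidine decarboxylase, the enzyme that makes histamine. Cpa3 encodes carboxypeptidase A3 of secretory granules. Mcpt8 and Prss34 encode the serine proteases mMCP-8 and mMCP-11, both known as basophil granule proteases in the mouse. Gzmb encodes granzyme B, a serine protease best known from cytotoxic lymphocytes and also made by some mast cells.

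In GRCm38 with GENCODE vM21, all 7 are protein-coding genes on 6 chromosomes. Cpa3 lies at chr3:20215620-20242181 on the minus strand, Hdc at chr2:126593667-126619299 on the minus strand, Ms4a2 at chr19:11615523-11623719 on the minus strand and Fcer1a at chr1:173221284-173227214 on the minus strand. Prss34 lies at chr17:25298394-25300165 on the plus strand. Mcpt8 at chr14:56082166-56085273 and Gzmb at chr14:56258838-56262260, both on the minus strand, belong to the same protease cluster. The 250 bases before the RefSeq start are shown for the 5 genes on which the results below turn, since the 2 receptor chains were counted together, Prss34 and Gzmb apart and Cpa3 most broadly. The sequences are RefSeq's for GRCm38.p6, read 5′ to 3′ on the strand of the gene, and all 7 genes matched that table. Capitals mark matches to 3 motifs of factors known from these lineages, searched on both strands, namely GATAA or TTATC (GATA factors), TTGCNNAA or TTNNGCAA (C/EBP factors) and TGTGGT or ACCACA (RUNX factors).
Fcer1a: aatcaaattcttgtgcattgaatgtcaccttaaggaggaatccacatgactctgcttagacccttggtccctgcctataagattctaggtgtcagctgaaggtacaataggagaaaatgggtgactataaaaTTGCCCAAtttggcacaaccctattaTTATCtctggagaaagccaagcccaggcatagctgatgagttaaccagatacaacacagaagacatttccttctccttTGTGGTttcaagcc
Ms4a2: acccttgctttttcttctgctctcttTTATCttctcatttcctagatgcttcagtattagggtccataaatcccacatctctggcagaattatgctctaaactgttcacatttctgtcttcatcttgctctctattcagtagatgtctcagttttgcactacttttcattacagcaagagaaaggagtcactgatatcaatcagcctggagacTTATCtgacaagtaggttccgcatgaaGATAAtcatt
Cpa3: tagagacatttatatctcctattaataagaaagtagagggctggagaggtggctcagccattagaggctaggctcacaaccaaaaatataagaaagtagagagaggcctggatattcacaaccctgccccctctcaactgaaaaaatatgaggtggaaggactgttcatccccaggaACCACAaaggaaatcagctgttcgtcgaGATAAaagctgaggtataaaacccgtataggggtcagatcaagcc
Prss34: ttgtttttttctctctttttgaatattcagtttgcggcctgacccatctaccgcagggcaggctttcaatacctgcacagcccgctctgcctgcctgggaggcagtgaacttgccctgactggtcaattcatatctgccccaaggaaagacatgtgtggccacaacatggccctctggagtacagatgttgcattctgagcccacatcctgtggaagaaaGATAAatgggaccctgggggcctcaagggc
Gzmb: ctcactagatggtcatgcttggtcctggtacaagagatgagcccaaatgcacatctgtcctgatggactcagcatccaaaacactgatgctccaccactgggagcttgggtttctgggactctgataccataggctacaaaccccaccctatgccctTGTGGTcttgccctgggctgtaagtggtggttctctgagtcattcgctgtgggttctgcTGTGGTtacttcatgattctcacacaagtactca

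These windows are chr1:173227230-173227479 (Fcer1a, minus), chr19:11623720-11623969 (Ms4a2, minus), chr3:20242182-20242431 (Cpa3, minus), chr17:25298144-25298393 (Prss34, plus) and chr14:56262335-56262584 (Gzmb, minus). The Fcer1a window held 1 match to each motif, TTATC beginning 92 bases, TTGCNNAA 118 bases and TGTGGT 14 bases before the start. The Ms4a2 window held 3 GATA matches, beginning 224, 37 and 10 bases before the start. Cpa3 had a GATA match 45 bases and a RUNX match 73 bases before its start, and Prss34 a GATA match 30 bases before. The Gzmb window held TGTGGT at 93 and 34 bases before the start and no GATAA or TTATC. Of 32851 promoters of this length, 22.6% held the GATA motif, 9.56% the C/EBP motif and 14.0% the RUNX motif, so a match is common and is given as a description only.

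The files held 59465 barcodes, of which 59136 had at least 200 detected genes and were kept. Totals ranged from 83062003 to 150135029 UMIs per library and the median cell held 8505 to 14951 UMIs. Of 58996 distinct barcodes, 467 (0.792%) occurred in more than 1 library. Of the 329 barcodes left out, 126 came from the very old male and 199 from the very old female. Cells were clustered without the 7 genes, and clusters were named from marker lists, as the files hold no annotation.

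A basophil and mast cell-like class of 1960 cells was made up of 2 of the 25 clusters. The first, called the Prg2 and Lmo4 cluster after its leading genes, held 1457 cells (109 to 247 per library) with a median of 14127 UMIs. It had 10 markers of the class among its 50 leading genes, including Lmo4, Csrp3, Gata2 and Slc18a2, and 3 of the eosinophil list. The eosinophil genes Prg2 and Prg3 led it. Prg2, at 16.2 UMIs per 10000, was detected in 13.7% of cells and Epx in 7.69%, against Lmo4 in 99.1% and Gata2 in 92.0%. None of the 11 eosinophil markers was at 0 in the cluster, and Alox15 and Ccr3 had 17 UMIs each. The summed level of that list ranged from 15.4 to 34.8 UMIs per 10000 in the young libraries, 14.1 to 24.5 in the middle-aged, 10.7 to 16.4 in the old and 8.90 to 24.3 in the very old. The granulocyte progenitor list summed to 50.0 to 74.6 UMIs per 10000 in this cluster, against 5.72 to 12.5 in the second cluster below. In every library it lay above the class's own list, which summed to 29.0 to 56.8. Cebpa was detected in 75.6% of cells and Elane in 67.7%. Elane stood at 4.46 UMIs per 10000, against 107.6 in granulocyte progenitor-like cells. The mast cell tryptases Tpsb2 and Tpsab1, the chymase Mcpt4 and Tph1 were at 0 in this cluster. The second, the Cma1 cluster, held 503 cells (32 to 93 per library) with a median of 6565 UMIs and 11 markers of the class. It was led by Cma1, a mast cell chymase, Scin, Cyp11a1, Id2 and Lmo4, and Tpsab1 was the only class marker at 0. The 2 clusters are therefore described by their genes rather than as basophils and mast cells.

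The 7 genes shared the class and differed sharply in how far outside it they were counted. Of all UMIs of each gene, the class held 92.6% for Gzmb, 91.3% for Prss34, 76.1% for Fcer1a, 69.9% for Ms4a2, 44.0% for Mcpt8, 37.1% for Cpa3 and 22.1% for Hdc. The UMIs of Gzmb and Prss34 sat almost entirely in a few cells, with 97.5% and 98.7% of them in the top 1% of all cells, against 20.2% for Hdc. As cells were clustered before these shares were taken, they are descriptions without a test.

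Gzmb and Prss34, both serine proteases, marked opposite clusters. Gzmb stood at 21.1 ± 7.28 UMIs per 10000 (SD, n = 8 libraries) in the Cma1 cluster and at 0.0345 ± 0.0234 in the Prg2 and Lmo4 cluster. Prss34 stood at 4.36 ± 5.68 in the Prg2 and Lmo4 cluster and at 0.0218 ± 0.0235 in the Cma1 cluster. The ranges over libraries did not overlap for either gene, Gzmb running from 12.6 to 35.4 against 0.00884 to 0.0772 and Prss34 from 0.283 to 17.8 against 0 to 0.067. Clusters were formed by expression, and the share of all genes without overlap between these clusters was not counted. In no library did Gzmb exceed 0.149 in any other named class. With cells thinned to 5000 UMIs, Gzmb was detected in 71.0% of cells in the Cma1 cluster and 1.40% in the Prg2 and Lmo4 cluster, beside 0.116% in erythroid-like cells, which should lack it. Without thinning the shares were 76.7%, 2.75% and 0.398%, at median depths of 6565, 14127 and 18291 UMIs. Thinning left out 104 shallower cells of the Prg2 and Lmo4 cluster, 169 of the Cma1 cluster and 4973 of the 15333 erythroid-like cells.

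Because Gzmb is best known from lymphocytes, T and NK markers were read beside it. In the Cma1 cluster 6 of the 13 T and NK markers were at 0, including Cd3e, Cd3g, Trbc2, Ncr1 and Gzma. The summed level of the list, 6.34 to 10.3 UMIs per 10000 across libraries, lay mostly in Nkg7 (6.65 per 10000 over all libraries). Trbc1 had 209 UMIs there, at 0.657 per 10000 against 0.00909 in the Prg2 and Lmo4 cluster. Prf1 had 15, at 0.0471 against 0.000909. Nkg7 was also counted at 5.41 per 10000 in the Prg2 and Lmo4 cluster, where Gzmb stood at 0.0309 per 10000, against 0.00382 in erythroid-like cells. The separate T and NK-like class had no Gzmb UMI in 99 cells, which allows a share of up to 3.03% of cells with a UMI. The study lists CD3e among the antibodies with which lineage-positive cells were removed.

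**Figure D1:**
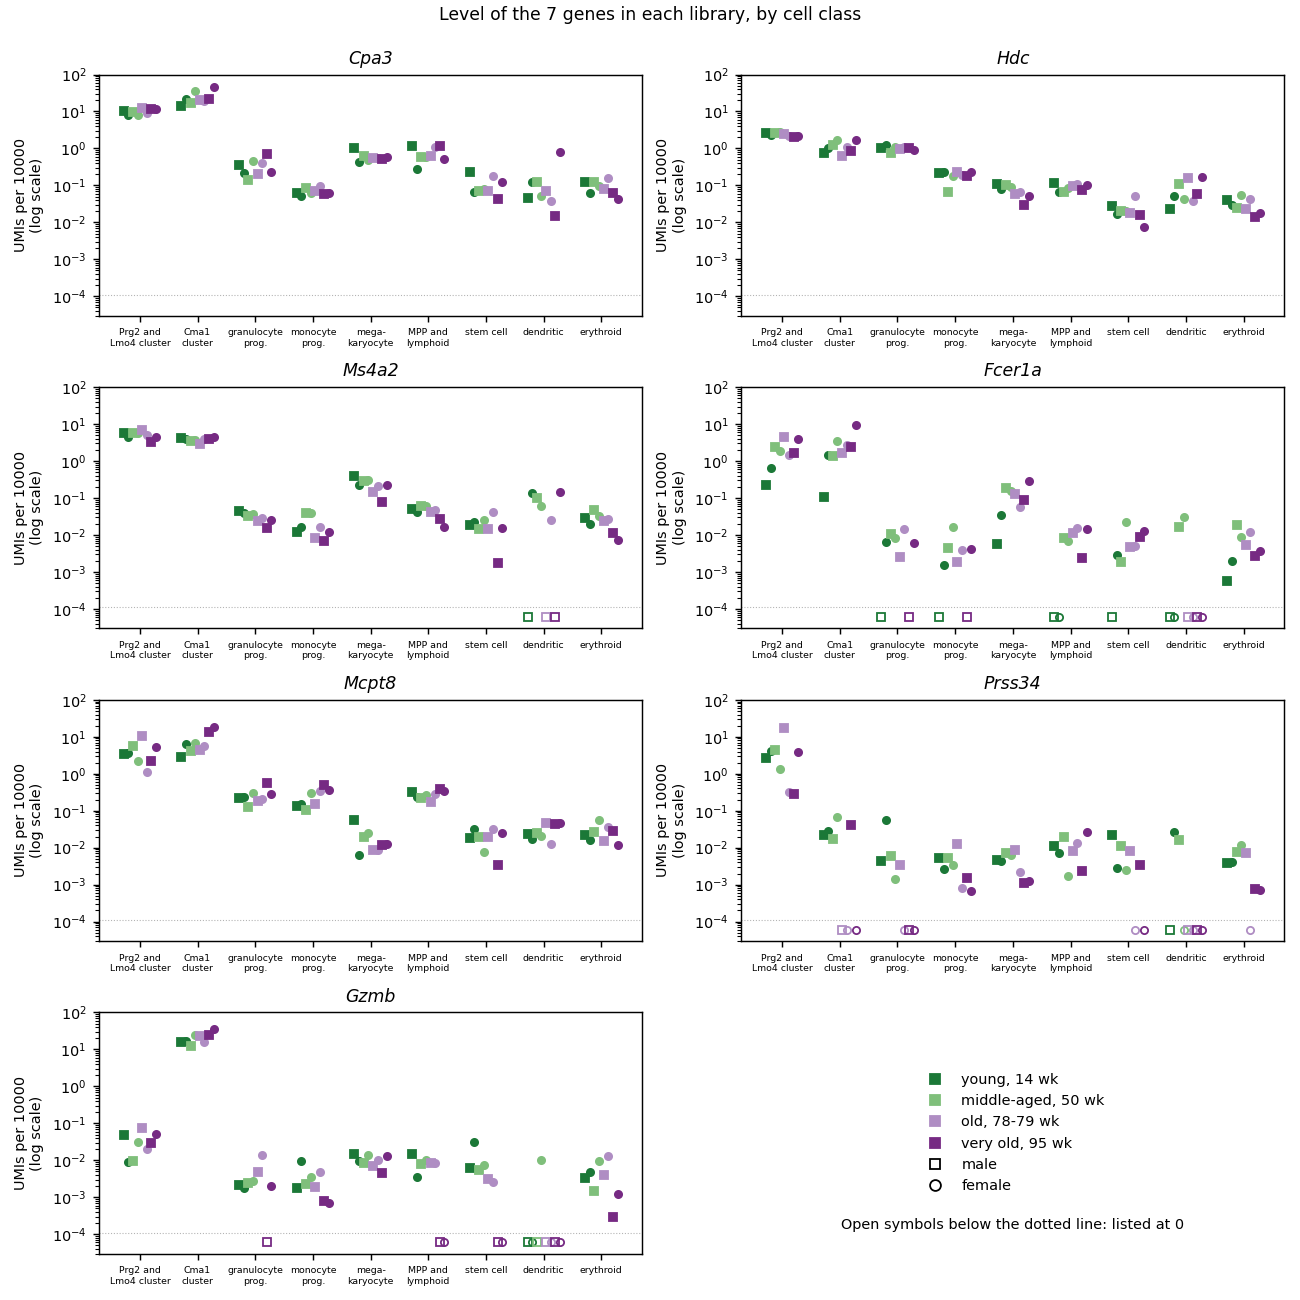
UMIs per 10000 of each of the 7 genes (log axis) in the cell classes, with a point for each library. Open symbols below the dotted line are libraries without a UMI of the gene. Prss34 is high in the Prg2 and Lmo4 cluster and Gzmb in the Cma1 cluster, while Cpa3 and Hdc extend into other classes.

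The 2 chains of the IgE receptor were high in both clusters. Ms4a2 stood at 5.17 ± 1.07 UMIs per 10000 (SD, n = 8) in the Prg2 and Lmo4 cluster and 3.85 ± 0.466 in the Cma1 cluster, and the ranges of 3.22 to 6.82 and 2.99 to 4.61 overlapped. Fcer1a stood at 2.10 ± 1.52 and 2.81 ± 2.86, with ranges of 0.220 to 4.58 and 0.108 to 9.45, which also overlapped. Both clusters come from the same 8 mice, and their levels were not compared mouse by mouse. The next named class for both chains was megakaryocyte-like, below an unnamed cluster of 2318 shallow cells that held Ms4a2 at 1.81 and Fcer1a at 0.429 UMIs per 10000. In megakaryocyte-like cells Ms4a2 stood at 0.234 ± 0.0981 and Fcer1a at 0.120 ± 0.0934 (n = 8). At 5000 UMIs, Fcer1a was detected in 4.32% of megakaryocyte-like cells against 0.261% of erythroid-like cells, and Ms4a2 in 6.25% against 0.792%. The granulocyte progenitor-like class, of similar depth to erythroid-like cells, gave 0.242% for Fcer1a and 1.21% for Ms4a2. The share in megakaryocyte-like cells was thus above that of the classes at background for both chains.

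Hdc reached furthest into the neutrophil lineage. Its level of 2.37 ± 0.249 UMIs per 10000 (SD, n = 8) was highest in the Prg2 and Lmo4 cluster, where all 8 libraries (1.996 to 2.75) lay above those of the Cma1 cluster (0.640 to 1.73). How many of all genes separate these clusters in this way was not counted. The Cma1 cluster averaged 1.13 ± 0.405, and granulocyte progenitor-like cells 1.01 ± 0.147 with 28.1% of all Hdc UMIs. The range of the latter, 0.738 to 1.22, lay inside that of the Cma1 cluster, and the 2 were not compared mouse by mouse. Cells left unnamed held a median of 32.9% of a library's Hdc UMIs (28.0% to 37.2%), against 28.3% in granulocyte progenitor-like cells (21.8% to 35.5%). At 5000 UMIs Hdc was detected in 38.3% of granulocyte progenitor-like cells, 9.14% of monocyte progenitor-like cells, 2.93% of megakaryocyte-like cells and 1.35% of erythroid-like cells.

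Cpa3 was the most widely counted of the 7. It stood at 24.6 ± 11.1 UMIs per 10000 (SD, n = 8) in the Cma1 cluster (14.2 to 46.6) and 10.1 ± 1.61 in the Prg2 and Lmo4 cluster (8.05 to 12.2), without overlap. Here too the share of all genes without such overlap was not counted. At 5000 UMIs Cpa3 was detected in 92.2% and 91.4% of the cells of these clusters. It was detected in 15.9% of megakaryocyte-like cells and in 3.01% of erythroid-like cells. Of its UMIs, 44.8% lay in cells left unnamed. A large unnamed cluster of 6028 cells led by Ccl9, Cebpa and Cd34 held 25.2% of Cpa3, 19.2% of Hdc and 16.4% of Mcpt8 UMIs. Among the 99 T and NK-like cells, 47 held a Cpa3 UMI, at 2.94 per 10000, whereas none held Ms4a2, Fcer1a or Prss34.

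Mcpt8 was high in both clusters and spread into progenitors of other myeloid lineages at a low level. It stood at 7.74 ± 5.42 UMIs per 10000 (SD, n = 8) in the Cma1 cluster (2.76 to 18.6) and 4.21 ± 2.88 in the Prg2 and Lmo4 cluster (1.11 to 10.2), which overlapped. Granulocyte progenitor-like cells gave 0.266 ± 0.135, monocyte progenitor-like cells 0.257 ± 0.143 and multipotent and lymphoid-primed progenitor-like cells 0.281 ± 0.0696, and these 3 ranges also overlapped. At 5000 UMIs Mcpt8 was detected in 9.42%, 6.22% and 6.75% of them, against 0.705% of erythroid-like cells. In the last of the 3 classes, a cluster of 5025 mostly shallow cells gave 21.3% in the 390 deep enough. Its cluster of 2655 cells gave 4.42% in 2423.

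Cells with 10 or more UMIs of a gene were counted by cluster. This cut is on UMIs as counted, so it favours deeper cells, and the Prg2 and Lmo4 cluster is the deeper of the 2. Of 208 such cells for Gzmb, 97.1% were in the Cma1 cluster, and of 130 for Prss34, 90.0% were in the Prg2 and Lmo4 cluster. The Prg2 and Lmo4 cluster also held 84.7% of the 170 for Fcer1a and 85.5% of the 587 for Ms4a2, although the Fcer1a level was not lower in the Cma1 cluster (2.42 against 1.95 UMIs per 10000). For Mcpt8 it held 50.7% of 357. Of 2518 cells for Cpa3, it held 34.2% and unnamed cells 47.0%, and of 156 for Hdc, 42.9% and 39.7%. The largest count in a single cell was 551 UMIs for Prss34 and 402 for Mcpt8, against 23 for Hdc.

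Mcpt8 and Gzmb lie in a protease cluster of chromosome 14, and its genes differed in the clusters that held their UMIs. Between Cma1 and Gzmb, over 320.81 kb (chr14:55941451-56262260), the annotation has 15 protein-coding genes. The mast cell proteases and chymases Cma1 (2465 UMIs), Mcpt2 (478), Mcpt4 (193), Mcpt1 (78) and Cma2 (25) had 94.6%, 95.0%, 96.9%, 96.2% and 100% of their UMIs in the Cma1 cluster. Gzmb at the far end followed them with 91.6%. Mcpt8, between Mcpt4 and the granzymes, had 35.7% of its UMIs in the Prg2 and Lmo4 cluster and 8.28% in the smaller and shallower Cma1 cluster, where its level was the higher of the 2, at 6.67 against 4.17 UMIs per 10000. Ctsg, the neutrophil protease cathepsin G, had 1340128 UMIs, 34.9% of them in granulocyte progenitor-like cells. Gzmc had 7 UMIs and Gzmd 1, and Mcpt9, Gzme, Gzmf, Gzmg and Gzmn had none. Several of these are close copies of one another, so the split of reads among them is uncertain.

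Within single cells of the Prg2 and Lmo4 cluster, the 2 basophil proteases were detected together. Of 329 cells with Prss34, 278 (84.5%, 73.1% to 90.6% in the 7 libraries with 10 or more such cells) also held Mcpt8, which was detected in 49.6% of all cells of the cluster. With every cell thinned to 5000 UMIs the share was 77.6%, against 34.1% of all cells, a ratio of 2.28. The reverse share was lower, since 38.5% of the 723 Mcpt8 cells held Prss34 (8.70% to 63.0% by library). Of the Prss34 cells, 69.0% held Fcer1a, from 25% to 84.8% by library. Of the 731 cells with Fcer1a, 698 (95.5%, 89.3% to 100% by library) held Ms4a2, where 87.5% of all cells did, and thinned shares were 90.5% and 78.2%. The 2 receptor chains were therefore usually seen in the same cells, but most cells of this cluster held Ms4a2 in any case.

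In the Cma1 cluster Mcpt8 was detected beside Gzmb. Of 128 cells with Mcpt8, 126 (98.4%, 86.7% to 100% in the 7 libraries with 10 or more) held Gzmb, where 76.7% of all cells did, and thinned shares were 95.7% and 71.0%. In the other direction 32.6% of 386 Gzmb cells held Mcpt8. Of the Mcpt8 cells, 75.8% held Fcer1a, from 8.33% to 100% by library. Prss34 and Gzmb were detected together in few cells. Of 1469 cells of the whole series with either, 16 (1.09%) held both, with at least 2 UMIs of each it was 1 of 677, and with at least 5 it was 0 of 464. Both genes are rare, and over all cells the 16 were 1.72 times the product of the 2 shares (1.09 times with thinned cells and 0.532 times at 2 UMIs), so these counts show no exclusion over the whole series. Within the class the ratio was 0.151.

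**Figure D2:**
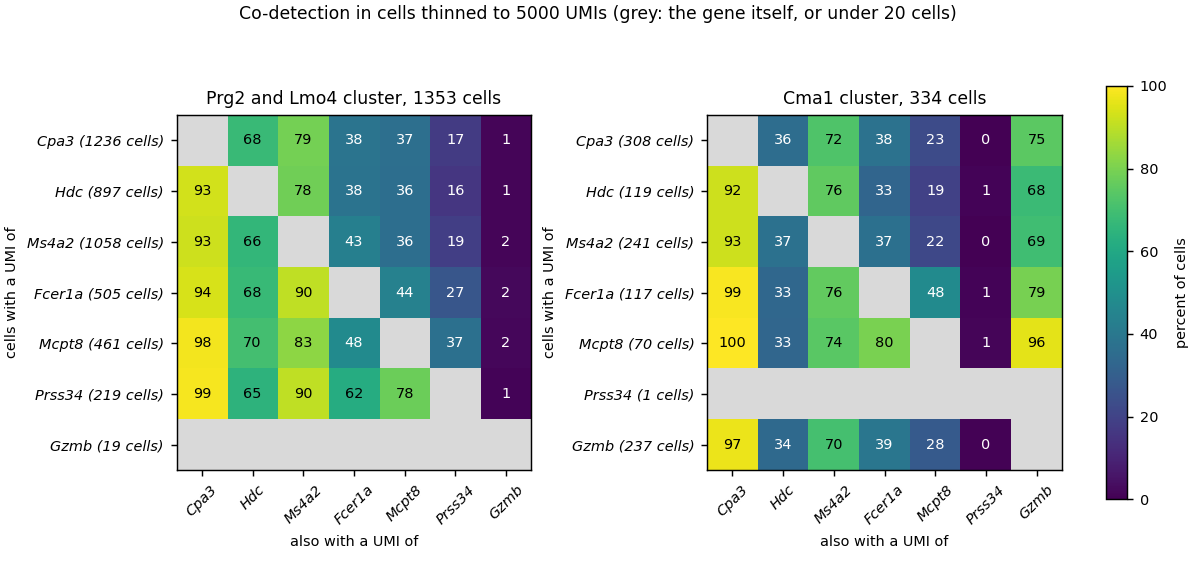
Percentage of cells with a UMI of the row gene that also held the column gene, in the Prg2 and Lmo4 cluster and in the Cma1 cluster, with cells thinned to 5000 UMIs. In the first, 77.6% of Prss34 cells held Mcpt8, and in the second, 95.7% of Mcpt8 cells held Gzmb.

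At least 3 of the 7 genes were detected in 89.3% of cells of the Prg2 and Lmo4 cluster and 80.5% of the Cma1 cluster, beside 4.41% of megakaryocyte-like and 0.548% of erythroid-like cells. Such counts depend on depth, and the erythroid-like class includes a cluster of 3649 cells with a median of 765 UMIs. At least 6 genes were detected in 183 and 28 cells of the 2 clusters.

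Both clusters held cells in which the proteases were concentrated, marked by a further gene. These splits were chosen after the values were seen and are descriptions. In the Cma1 cluster, the 142 cells with a Cma1 UMI (median 5299 UMIs) held Mcpt8 at 22.3 UMIs per 10000 and the 361 cells without it (median 7107 UMIs) at 1.54. Cpa3 stood at 64.5 against 9.81, Gzmb at 40.9 against 12.9 and Fcer1a at 6.44 against 1.10. All 4 were higher beside Cma1 in each of the 8 libraries, although the cells with Cma1 were the shallower ones. Hdc went the other way in its detection, with 25.4% of cells against 43.8%, lower in all 8 libraries. Its level was 1.17 against 1.10 per 10000, higher in 2 of the 8. Ms4a2 stood at 3.54 against 3.87, higher in 4 of the 8.

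In the Prg2 and Lmo4 cluster the cells were split by Cyp11a1, which encodes the enzyme of the first step of steroid synthesis. Cyp11a1 went with Mcpt8 in the Cma1 cluster too. There Cyp11a1 was detected in 88.1% of cells with at least 2 Mcpt8 UMIs and 17.3% of cells with none. The 254 cells with Cyp11a1 held Prss34 at 18.5 UMIs per 10000, against 1.05 in the 1203 cells without it, and Mcpt8 at 15.4 against 1.70. Fcer1a stood at 4.16 against 1.47, Ms4a2 at 7.22 against 4.84 and Cpa3 at 14.4 against 8.74. These 5 were higher beside Cyp11a1 in each of the 8 libraries. Prg2, which encodes the eosinophil major basic protein, divided the cluster differently. In the 199 cells with Prg2, Ms4a2 stood at 2.90 against 5.67 and Fcer1a at 1.23 against 2.07, lower in all 8 libraries. Hdc stood at 3.08 against 2.30, higher in all 8. Mcpt8 was at 4.03 beside Prg2 and 4.19 without it, higher beside it in 5 of 8 libraries, but it was detected in 73.4% against 45.9% of cells, the larger share beside Prg2 in 8 of 8. Prss34 stood at 2.68 and 4.44, higher beside Prg2 in 4 of 8 libraries, and was detected in 31.2% against 21.2% of cells, the larger share beside Prg2 in 6 of 8.

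Over the 25 clusters, Fcer1a and Ms4a2 were the most alike of the 7 (Pearson r of log2(CPM + 1) = 0.96) and Prss34 and Gzmb the least (0.24). The clusters share libraries and differ in depth, so r is given as a description. Among 10723 genes, the non-members most like Fcer1a were Cdh1 (0.88), Il6 (0.87) and Cd200r3 (0.86), and those most like Ms4a2 were Il6 (0.87), Gm11697 (0.86) and Cdh1 (0.85). Gzmb was closest to Cma1 (0.94), Mcpt2 (0.93) and Cpvl (0.92). Prss34 was closest to Rnase12 (0.88), Epx (0.82) and Edem3 (0.70). Mcpt8 was close to Rtn4r (0.83) and Rab44 (0.83), and Hdc closest to Rps6ka2 (0.90), Rab44 (0.89) and Ltb4r1 (0.89). The genes closest to Cpa3 were Emid1 (0.89), Fut8 (0.86) and Mdga1 (0.85).

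The share of cells in the class was lowest in the 2 very old libraries, and the test found no difference between older and young mice. It was 3.21% and 3.06% in the young male and female, 4.94% and 3.86% in the middle-aged, 3.61% and 3.49% in the old and 2.09% and 2.53% in the very old. The middle-aged male was highest (95% Wilson interval 4.45% to 5.47%) and the very old male lowest (1.78% to 2.46%), and these intervals cover counting error only. The older mice averaged 2.93% ± 0.739 (SD, n = 4) and the young 3.14% ± 0.106 (n = 2), a difference of -0.207 percentage points (two-sided exact permutation test p = 0.8, where 0.0667 is the smallest p that 4 against 2 allows). With the old mice alone the difference was 0.412 points, both old libraries lying above both young ones.

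Summed over all cells, Fcer1a was the member with the largest difference by age, and no member passed the test. Fcer1a stood at 0.806 counts per 1000000 UMIs (CPM) in the young male and 2.33 in the young female. It stood at 14.2 and 10.4 in the middle-aged male and female, 13.4 and 7.66 in the old, and 3.80 and 10.9 in the very old. All 6 later libraries lay above both young ones, as did 5.3% of the 15361 genes tested. The log2 fold change was 2.53 ± 0.59 (SE) in older against young mice (edgeR quasi-likelihood test, adjusted p = 0.117) and 2.97 ± 0.64 in middle-aged against young (adjusted p = 0.0962). In sums over all cells, fewer cells of a type and less RNA per cell cannot be told apart.

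Of the 7 members, 0 passed in older against young mice over all cells, where 1.21% of genes did, and 1 (Fcer1a) had an unadjusted p under 0.05. In middle-aged against young mice 0 passed, where 0.397% of genes did, and again 1 (Fcer1a) had an unadjusted p under 0.05. These shares of genes are at the adjusted threshold and are no background for the counts at an unadjusted p. DESeq2's Wald test, which called 2.34% and 4.83% of genes, called 1 member (Fcer1a) in both comparisons, with adjusted p = 0.0270 and 0.0143. Without the young male, whose level is the lowest of all, the edgeR log2 fold changes were 1.92 and 2.32, with adjusted p = 0.323 and 0.188. The lone young female is then assumed to vary like the other groups.

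**Figure D3:**
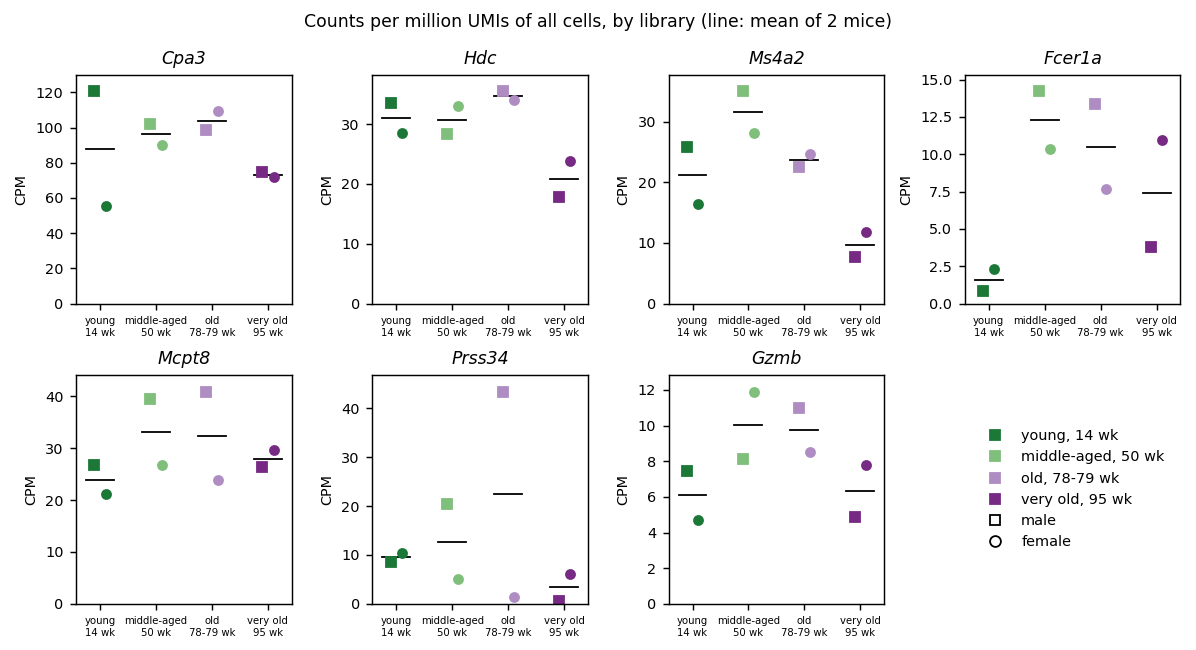
CPM of each of the 7 genes over all cells at the 4 ages, with a point for each mouse marked by sex. Fcer1a is lowest in both young mice, and Hdc and Ms4a2 are lowest in both very old mice.

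The 2 receptor chains had different orders over the ages, and neither change passed the test. Ms4a2 stood at 25.8 and 16.5 CPM in the young male and female, 35.03 and 28.1 in the middle-aged, 22.6 and 24.8 in the old and 7.60 and 11.8 in the very old. Both very old libraries were lowest, while the old and young ones overlapped. Hdc had the same order at the low end, with 17.8 and 23.8 CPM in the very old male and female against 28.4 to 35.5 in the other 6. The share of all genes that were lowest in both very old libraries was not counted. In older against young mice Ms4a2 differed by a log2 fold change of -0.46 ± 0.22 (edgeR adjusted p = 0.486) and Hdc by -0.20 ± 0.13 (adjusted p = 0.621). With the old mice alone, without the other library series, the estimates were 0.17 and 0.14.

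Among the granule enzymes, Prss34 differed most between mice of the same age. It stood at 8.62 and 10.4 CPM in the young male and female, 20.4 and 5.03 in the middle-aged, 43.4 and 1.37 in the old and 0.540 and 6.18 in the very old. The male and the female differed in both directions, and the log2 fold change of -0.24 ± 1.21 in older against young mice (edgeR adjusted p = 0.969) carried the widest error of the 7. A few cells set this level. In the old male, 35 cells with 10 or more Prss34 UMIs held 96.0% of the gene's UMIs, and in the old female a single such cell was found. Mcpt8 ranged from 21.2 CPM in the young female to 40.9 in the old male, with a log2 fold change of 0.34 ± 0.19 (adjusted p = 0.561). Gzmb ranged from 4.72 CPM in the young female to 11.9 in the middle-aged female (0.38 ± 0.28, adjusted p = 0.676). Cpa3 was 120.5 CPM in the young male and 55.4 in the young female, its highest and lowest values, and the older mice lay between them at 71.7 to 109 (0.06 ± 0.21, adjusted p = 0.955).

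Between the sexes, 0 of the 7 genes passed in the same fit, where 0.13% of genes did, and DESeq2's Wald test, which called 1.18%, also called 0. Mcpt8 was the only member with an unadjusted p under 0.05, a looser threshold than that of the shares. Its log2 fold change was -0.37 ± 0.15 in females against males (edgeR adjusted p = 0.473). Prss34 gave -0.87 ± 1.27 (adjusted p = 0.836) and Cpa3 -0.30 (adjusted p = 0.581).

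Within the basophil and mast cell-like class, which takes the number of its cells out of the comparison, Fcer1a again had the largest estimate, and it did not pass the threshold. It stood at 0.204 UMIs per 10000 in the young male (70 UMIs in 227 cells) and 0.716 in the young female (268 UMIs in 266 cells). It stood at 2.29 and 2.09 in the middle-aged male and female, 4.11 and 1.598 in the old and 1.71 and 4.66 in the very old. All 6 later libraries lay above both young ones, as did 1.48% of the 10332 genes tested. The log2 fold change was 2.80 ± 0.47 (SE) in older against young mice (edgeR adjusted p = 0.0574) and 2.29 ± 0.50 in middle-aged against young (adjusted p = 0.277). Detection followed the level. At 5000 UMIs per cell, Fcer1a was found in 7.29% and 22.5% of class cells in the young libraries and in 33.6% to 58.0% in the 6 later ones.

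In older against young mice, 0 of the 7 members passed within the class, where 0.029% of genes did (3 of 10332), and 3 (Fcer1a, Cpa3 and Gzmb) had an unadjusted p under 0.05. In middle-aged against young mice 0 passed, where 0.00968% of genes did (1 gene), and 1 (Fcer1a) had an unadjusted p under 0.05. Both shares of genes are at the adjusted threshold and are no background for the counts at an unadjusted p. DESeq2's Wald test called no member in either comparison (0.00606% and 0.0% of genes). The side of the threshold on which Fcer1a fell depended on single libraries. Its adjusted p was 0.749 without the young male, 0.0798 without the young female, and between 6.57e-08 and 0.0382 when any 1 of the 4 older mice was left out. It was 0.0199 with the old mice alone and 0.869 with DESeq2's Wald test. In the Prg2 and Lmo4 cluster by itself the order was like that of the class, at 0.220 and 0.643 UMIs per 10000 in the young libraries and 1.43 to 4.58 in the 6 later ones. In the Cma1 cluster it was 0.108 and 1.43 in the young libraries and 1.37 to 9.45 in the later ones, where the middle-aged male (1.37) lay below the young female.

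**Figure D4:**
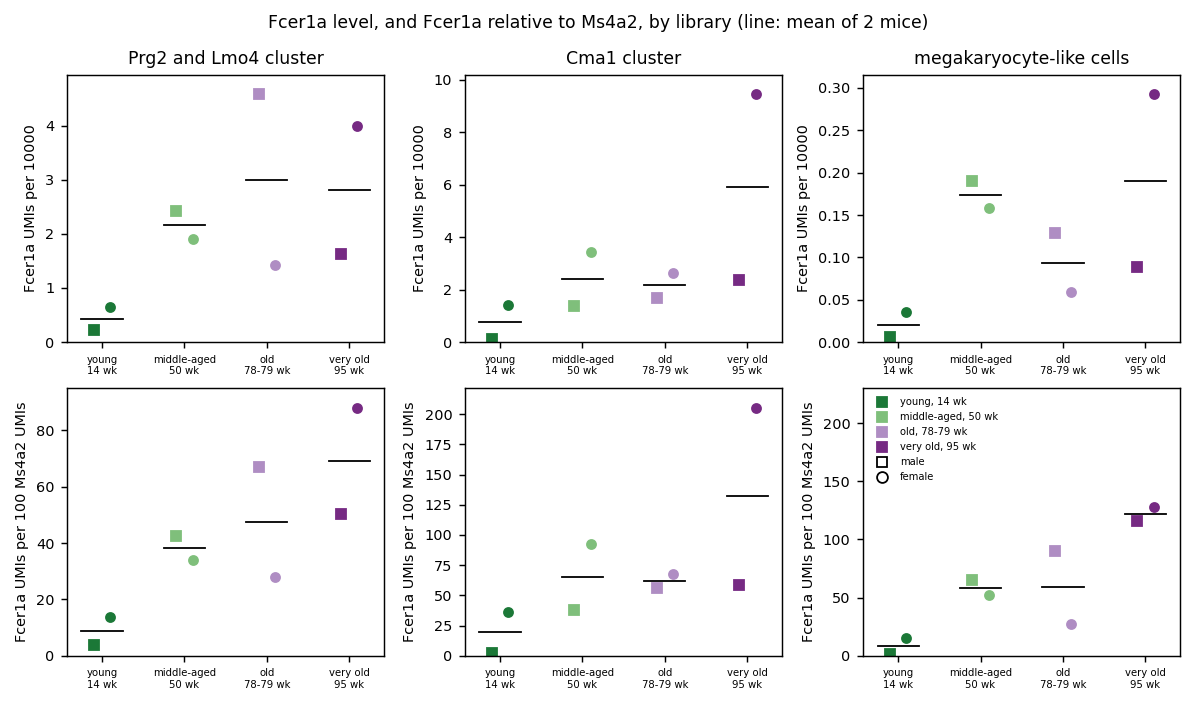
Fcer1a UMIs per 10000, and Fcer1a UMIs per 100 Ms4a2 UMIs, for each library by age. The panels show the Prg2 and Lmo4 cluster, the Cma1 cluster and megakaryocyte-like cells. Both young libraries lie below the 6 later ones, except for the level in the Cma1 cluster. There the middle-aged male lies below the young female. The young male is lowest in each panel.

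Fcer1a was also higher in the later libraries when set against Ms4a2, the other receptor chain. This ratio was chosen after the values were seen and carries no test. The class held 3.71 and 15.7 Fcer1a UMIs per 100 Ms4a2 UMIs in the young male and female. It held 42.0 and 39.1 in the middle-aged, 66.3 and 32.4 in the old and 51.6 and 102 in the very old. Of class cells with Ms4a2, 13.9% and 33.6% held Fcer1a in the young libraries and 51.7% to 76.3% in the later ones. The highest share, in the very old female, came from the library whose class cells were shallowest (median 8905 UMIs), and the lowest from one of the deepest (median 14320 UMIs, young male).

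The estimates of the other 6 members within the class were smaller. Gzmb had a log2 fold change of 0.84 ± 0.25 in older against young mice (edgeR adjusted p = 0.598) and Cpa3 0.42 ± 0.12 (adjusted p = 0.562). Mcpt8 gave 0.57 ± 0.42 (adjusted p = 0.839) and Prss34 0.20 ± 0.93 (adjusted p = 0.987), while Hdc and Ms4a2 gave -0.08 and -0.04. Gzmb and Cpa3 passed without the old female (adjusted p = 0.00146 and 0.0108) and with no filter on low counts, Mcpt8 with no filter and in the Cma1 cluster alone (adjusted p = 1.0e-04), and Prss34, at -0.54 in middle-aged mice, with no filter (adjusted p = 0.00423). Hdc lay at 2.32 and 2.16 UMIs per 10000 in the young libraries and at 1.85 to 2.14 in the 4 older ones. All 4 older libraries were below both young ones, as for 8.89% of genes tested. In the Cma1 cluster Gzmb stood at 16.1 and 17.2 in the young male and female, 12.6 and 24.7 in the middle-aged, 22.8 and 15.6 in the old and 24.1 and 35.4 in the very old. Cpa3 there was highest in the very old female (46.6) and the middle-aged female (36.6), against 14.2 to 21.9 in the other 6. In the Prg2 and Lmo4 cluster Prss34 and Mcpt8 peaked together in the old male, at 17.8 and 10.2, and both were low in the old female, at 0.319 and 1.11.

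**Figure D5:**
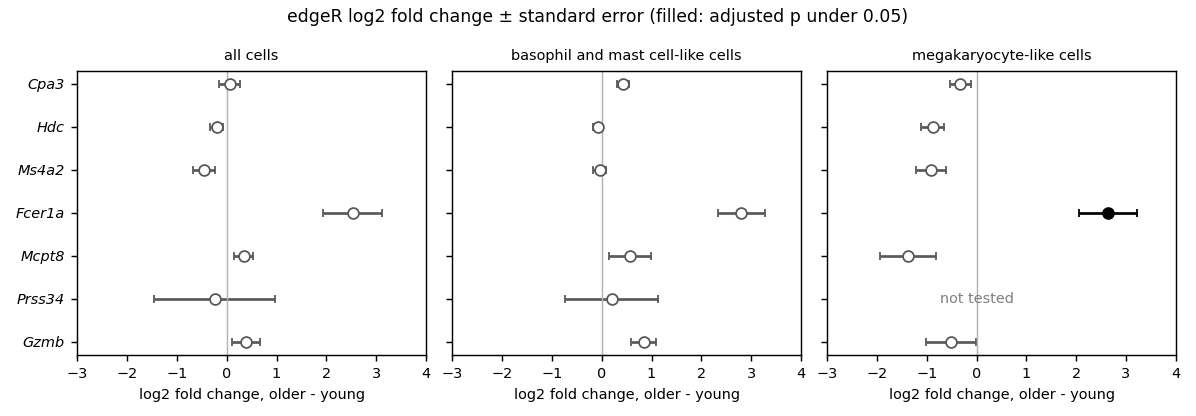
Log2 fold change of each member with its standard error, for older against young mice over all cells, in the class and in megakaryocyte-like cells. Fcer1a lies between 2.53 and 2.80 in every panel, and Prss34 has the longest error bars in the panels that hold it. Prss34 was removed by the filter on low counts in megakaryocyte-like cells.

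Outside the class, older and young mice were compared within each other named class that had at least 20 cells in every library. In megakaryocyte-like cells Fcer1a was the only member of 6 tested that passed, where 2.63% of genes did. Prss34 was removed by the filter on low counts. Fcer1a stood at 0.006 and 0.035 UMIs per 10000 in the young male and female. These levels rested on 5 and 33 Fcer1a UMIs in 532 and 646 cells. Fcer1a stood at 0.190 and 0.158 in the middle-aged, 0.128 and 0.059 in the old and 0.089 and 0.292 in the very old. All 6 later libraries lay above both young ones, as did 5.68% of the 11806 genes tested. The log2 fold change was 2.63 ± 0.58 (edgeR adjusted p = 0.0289). The call was lost without the young male (adjusted p = 0.371), without the very old female (0.0595), with the old mice alone (0.106), without the sex term (0.0629), with age in weeks as a line (0.191) and with DESeq2's Wald test (0.12).

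Hdc and Ms4a2 had negative estimates in the same cells, neither of which passed in the reported fit. Hdc stood at 0.110 and 0.078 UMIs per 10000 in the young libraries and 0.030 to 0.066 in the older ones, with a log2 fold change of -0.88 ± 0.22 (edgeR adjusted p = 0.0565). Hdc passed with no filter on low counts (adjusted p = 3.05e-04), without the young female (0.0256), without the old female (0.0185) and without the very old female (0.0364), and not in the other 12 alternatives, where without the young male it was 0.765. All 4 older libraries lay below both young ones, as for 12.9% of genes tested. Ms4a2 gave -0.92 ± 0.30 (adjusted p = 0.134) and Mcpt8 -1.38 ± 0.56 (adjusted p = 0.251). With no filter and without the young female both passed, and Ms4a2 also passed without the very old female (adjusted p = 0.0195). Cpa3 gave -0.33 ± 0.21 (edgeR adjusted p = 0.524) and passed in 2 of 15 alternatives. Fcer1a UMIs per 100 Ms4a2 UMIs were 1.48 and 15.6 in the young libraries and 27.7 to 128 in the later ones. The fold change of Fcer1a in megakaryocyte-like cells was not compared with that in the class by a test.

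In the other classes the edgeR test called no member in older against young mice. The members tested, those with an unadjusted p under 0.05 and the share of all genes past the adjusted threshold are given in turn. The share is at a stricter threshold than the count beside it. They were 7, 3 and 0.0158% in erythroid-like cells, and 4, 1 and 0.0184% in granulocyte progenitor-like cells. They were 4, 1 and 0.0603% in monocyte progenitor-like cells, 5, 0 and 0.761% in multipotent and lymphoid-primed progenitor-like cells, and 4, 0 and 11.2% in stem cell-like cells. In dendritic-like cells 2 members were tested and no gene of any kind was called. DESeq2's Wald test called no member in any of them. The smallest unadjusted p in these classes was that of Mcpt8 in monocyte progenitor-like cells, at a log2 fold change of 1.18 ± 0.27 (edgeR adjusted p = 0.156), which passed with no filter and without the middle-aged male (adjusted p = 0.0484). Fcer1a in erythroid-like cells had a larger estimate, 1.86 ± 0.59 (adjusted p = 0.75).

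Of 54 further genes of the basophil and mast cell pathway, chosen for known roles, 48 passed the filter over all cells. Of them 0 were called by edgeR in older against young, middle-aged against young and female against male mice. The same test called 1.21%, 0.397% and 0.13% of all genes. DESeq2's Wald test called 2 of 51, 6 of 47 and 2 of 47 list genes, and 2.34%, 4.83% and 1.18% of all genes. At an unadjusted p under 0.05 in edgeR there were 7, 12 and 9, and the share of all genes at that threshold is not given. Within the class 46 were tested and 1 rose in older mice, Mcpt1, a mast cell chymase. Its class UMIs numbered 24 in the old female, 51 in the very old female and 0 in the other 6 libraries, so it was at least 18.5-fold higher in older mice against a floor of 3 counts over the young group (edgeR adjusted p = 0.0305). The call rested on 2 females and was lost when either was left out (adjusted p = 1.0), as it was without the young female (1.0) or either middle-aged mouse (0.109 and 0.119), without the sex term (0.822) and with the class formed of cells that held at least 2 of 6 members (0.0996). In middle-aged mice 1 rose, Mcpt2, with 41 and 93 UMIs against 0 and 2 in the young, a ratio of 57.6 (95% exact counting interval 15.6 to 480, adjusted p = 0.00602). It was 0, 6, 27 and 285 in the older mice, and the call was lost without the young female (adjusted p = 0.747) and without the sex term (1.0). DESeq2's Wald test called neither gene. Mcpt1 and Mcpt2 are close paralogues, and the median log2 fold change of the list in the class was 0.157 in older mice (all genes -0.002).

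In megakaryocyte-like cells, where 2.63% of all genes were called, 39 of the 54 were tested, and 2 rose and 2 fell in older mice. Ptgs1, cyclooxygenase-1 of prostaglandin and thromboxane synthesis, rose by 0.60 on the log2 scale (edgeR adjusted p = 0.0157), and Lat, an adaptor of receptor signalling in mast cells, T cells and platelets, by 0.38 (adjusted p = 0.0424). Ctsg fell by 0.66 (edgeR adjusted p = 0.00979). It stood at 81.5 and 62.9 CPM in the young male and female and 69.6 and 65.4 in the old. In the very old, of the other library series, it stood at 27.0 and 32.7. Fcer1g, the signalling chain shared by the IgE receptor and other Fc receptors, fell by 0.45 (adjusted p = 0.0176). All 4 calls were lost without the young male and with the old mice alone. Without the young male the log2 fold changes of Ptgs1, Lat, Ctsg and Fcer1g were 0.37, 0.52, -0.40 and -0.51. With the old mice alone they were 0.61, 0.36, -0.08 and -0.35 (edgeR adjusted p = 0.079, 0.212, 0.884 and 0.188). Without the very old male the calls of Ptgs1, Lat and Ctsg were lost, at log2 fold changes of 0.58, 0.37 and -0.40. Without the young female Lat and Fcer1g were lost, at 0.25 and -0.39, and without the very old female, at 0.37 and -0.37. DESeq2's Wald test called 2 of the list and 141 of 12178 genes, and with it Lat and Fcer1g did not pass (adjusted p = 0.159 and 0.0856). Lat was also lost without the sex term (edgeR adjusted p = 0.0759). Ctsg was lost with age in weeks as a line (adjusted p = 0.118) and without the 5% of cells with the most UMIs (0.0705). The 3 chains of the IgE receptor thus had estimates of 2.63 (Fcer1a), -0.92 (Ms4a2) and -0.45 (Fcer1g) in these cells. The list's median was -0.084, against -0.009 over all genes.

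In stem cell-like cells, where 11.2% of all genes were called, 38 were tested, and 7 rose and 7 fell. Of the list, 2 were called without the young male, 5 by DESeq2's Wald test, 7 with age in weeks as a line and 9 without the sex term, where 193 of 11920, 529 of 12541, 609 of 11586 and 753 of 11586 genes were called. The 5 with the smallest adjusted p were transcription factors, a signalling kinase and a granule membrane protein. Gata2, a factor of stem cells, megakaryocytes, basophils and mast cells, rose by 0.88 (edgeR adjusted p = 3.2e-04) and Cd63, a granule membrane protein used to detect basophil activation, by 0.72 (adjusted p = 5.2e-04). Cebpa and Spi1, factors of myeloid cells, fell by 1.70 (adjusted p = 0.00247) and 0.67 (adjusted p = 0.00717), and Syk, the kinase downstream of the IgE receptor, fell by 0.79 (adjusted p = 0.00476). Without the young male the calls of Cebpa, Spi1 and Syk were lost, at log2 fold changes of -1.01, -0.31 and -0.43. The calls of Gata2 and Cd63 held in every alternative run. The list's median was -0.129, against -0.035 over all genes. None of the list was called by edgeR in the 23 tested in dendritic-like, 39 in erythroid-like, 35 in granulocyte progenitor-like, 37 in monocyte progenitor-like and 38 in multipotent and lymphoid-primed progenitor-like cells. There 4, 6, 2, 8 and 7 had an unadjusted p under 0.05, a threshold at which the share of all genes is not given. DESeq2's Wald test called 0 in each.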

How the data were processed

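Raw UMI counts per gene and cell were deposited by the authors, made with Cell Ranger (mm10 in the processing notes; 6.0.0 in the file headers, another version in the study's methods) and not normalized. The labels and the series' design name different kit versions. Cells with 200 or more genes were kept. Without the 7 members, 2000 variable genes, 30 principal components, an own implementation of Harmony (theta 1), 20 neighbours and Leiden clustering (leidenalg 0.10.2, resolution 0.8) gave 25 clusters, named where 4 or more markers of a class were among the 50 leading genes. A cluster with more markers of another class than of its own among its top 10 genes, with a tie between classes, or shallow with no marker among its top 10 stayed unnamed. The minimum of 4 was set after the leading genes, and before the members' values, were seen. A cluster with 3 markers of the class entered an alternative chosen after seeing the data. No doublet caller was run, and leaving out the 5% of cells with the most UMIs was an alternative.

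Counts were summed per mouse over all cells or a class and tested with edgeR 4.0.16 (TMM, filterByExpr, quasi-likelihood test) on age group and sex, with Benjamini-Hochberg adjustment over all genes tested and a threshold of 0.05. DESeq2 1.42.0 was an alternative. Shares of all genes called are at the adjusted threshold and are no background for counts at an unadjusted p under 0.05. Shares of cells were compared by an exact permutation test. For shares of cells with a UMI, cells were thinned to 5000 UMIs. The members and gene lists were chosen with earlier results of these data known. The rule for named genes takes all members, list genes past the test (at most 5 by adjusted p), and the 3 genes most like each member over clusters among those with 10 CPM or more in a cluster. A gene that this rule takes is not reported here. Columns of other samples numbered 0. R 4.3.3 and Python 3.11.15 were used.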

Additional observations from a re-analysis of the deposited data

Results flagged for a closer look

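The results below stood apart by a rule on single values or on opposite directions. Over all cells, Cpa3 moved in opposite directions in the sexes, with a change from the young to the older mice of -0.339 UMIs per 10000 in males and 0.350 in females, a difference of -0.689, which was not tested. It rests on the young mice, whose male and female had the highest and the lowest level of the 8 libraries. Among 45 groups of 4 libraries examined, 2 held a library far from the other 3, and chance gives about 1 in 20. The old male had 0.434 Prss34 UMIs per 10000 over all cells, against 0.00540 to 0.0618 in the other 3 older mice, and 35 cells held 96.0% of them. The middle-aged female had 2.62 Hdc UMIs per 10000 in the basophil and mast cell-like class, against 2.07 to 2.16 in the other 3 females.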

How the results depend on the processing

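The alternatives changed the normalization, the test, the filter on low counts, the sex term, the cell filter, doublets, the older mice, Harmony, the resolution and how the class was formed, and left out each mouse in turn. Of 1240 recomputed values, 1016 kept their direction, their side of the threshold or their size, 59 reversed in sign, 71 crossed the threshold and 94 counts or shares moved. Fcer1a was higher in older than in young mice in every alternative run over all cells, in the class and in megakaryocyte-like cells, and in middle-aged than in young mice in every one run over all cells and in the class. The side of the threshold on which it fell varied. Where leaving out a mouse left 1 in a group, that mouse was assumed to vary like the other groups. The cause of the changes below was not tested.

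Over all cells 1 member was called, against 0, with DESeq2's Wald test and with no filter on low counts, in older and in middle-aged mice, and 1 in middle-aged mice without the class. In the class, older mice gave 4 called members with no filter (56 of 16496 genes), 2 in the Cma1 cluster alone (6 of 6198), and 1 with no Harmony, at a resolution of 1.6, with the old mice alone and without the cells with the most UMIs. Without single mice there were 0 to 3, with calls without the old male (1), the old female (3), the very old male (1) and the very old female (1), where 22, 29, 23 and 6 genes were called. Middle-aged mice gave 2 with no filter (43 of 16496 genes), 1 in the Cma1 cluster alone and 0 to 1 without single mice. With no filter, the prior degrees of freedom of edgeR's fit were infinite in the class and in megakaryocyte-like cells, against 11.8 and 10.5 in the reported fits. In megakaryocyte-like cells there were 5 with no filter (769 of 18166 genes), 0 with DESeq2's Wald test, without the sex term, with the old mice alone and with age in weeks as a line, and 0 (without the young male) to 5 (without the young female) when a mouse was left out. Granulocyte progenitor-like, monocyte progenitor-like, multipotent and stem cell-like cells gave 1 with no filter, and the first, the second and the last gave 0 to 1 without single mice.

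Log2 fold changes that changed sign were all of genes that did not pass. In older against young mice over all cells they were Hdc (0.14) and Ms4a2 (0.17) with the old mice alone, Cpa3 with age as a line (-0.0016 per 10 weeks) and Gzmb without the class (-0.74). Without single mice the ranges were -0.40 to 0.61 for Cpa3, -2.07 to 0.85 for Prss34 and -0.017 to 0.85 for Gzmb. In middle-aged mice they were Cpa3 without the class (-0.19) and Prss34 without the cells with the most UMIs (-0.15), with ranges of -0.34 to 0.67 for Cpa3, -0.26 to 0.093 for Hdc and -0.95 to 1.03 for Prss34. Between sexes Ms4a2 was 0.065 without the class, with ranges of -0.29 to 0.13 for Ms4a2, -0.042 to 0.18 for Hdc, -0.081 to 0.85 for Fcer1a, -2.08 to 0.39 for Prss34 and -0.17 to 0.28 for Gzmb. In the class, older mice gave Hdc 0.26 in the Cma1 cluster alone, Ms4a2 0.17 with the old mice alone, 0.075 with no Harmony and 0.032 with the added 3-marker cluster, and Prss34 -0.15 at a resolution of 1.6 and -0.17 in cells with at least 2 of 6 members. The ranges were -0.16 to 0.0074 for Hdc, -0.20 to 0.13 for Ms4a2, -0.029 to 1.18 for Mcpt8 and -1.75 to 1.48 for Prss34. Middle-aged mice gave Cpa3 -0.065 and Gzmb -0.46 in the Prg2 and Lmo4 cluster alone and Ms4a2 -0.16 in the Cma1 cluster alone, with ranges of -0.020 to 0.26 for Ms4a2, -0.41 to 0.71 for Mcpt8, -1.63 to 0.64 for Prss34 and -0.33 to 0.77 for Gzmb.

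The difference in the share of the class was 0.412 points with the old mice alone, 0.0432 at a resolution of 1.6 and 0.0412 for the Cma1 cluster. It was -1.57 with the 3-marker cluster, -1.43 for cells with at least 2 of 6 members and -0.442 with no Harmony. Without single mice it ranged from -0.435 to 0.0717. With the 3-marker cluster the class held 73.4% of Ms4a2 UMIs. Thinning gave 77.6% of Prss34 cells with Mcpt8 and 90.5% of Fcer1a cells with Ms4a2. Over all genes, calls ranged from 0 to 485 (186 as reported) in older and 0 to 708 (61) in middle-aged mice, 8 to 173 (20) between sexes, 0 to 56 (3) and 0 to 43 (1) in the class and 30 to 769 (311) in megakaryocyte-like cells. Calls ranged from 0 to 15 (0) in dendritic-like, 0 to 76 (2) in erythroid-like, 0 to 50 (2) in granulocyte progenitor-like, 0 to 117 (7) in monocyte progenitor-like, 7 to 259 (89) in multipotent and 193 to 1809 (1295) in stem cell-like cells. Alternatives that used single clusters of the class or added the 3-marker cluster were chosen after seeing the data. No paired analysis by replicate number was possible because the labels carry none, and the sex term of the fit compared ages within sex. With 2 young mice, a difference set by 1 of them cannot be told from one of age, and the Cma1 cluster rests on 32 to 93 cells per library.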

Other observations

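An unnamed cluster of 2318 shallow cells (median 2099.5 UMIs) ranked at place 3 of the 25 clusters by level for Cpa3, Ms4a2, Fcer1a and Mcpt8 and at place 2 for Prss34. Cpa3 stood there at 4.19 UMIs per 10000, Ms4a2 at 1.81, Mcpt8 at 1.46, Prss34 at 0.75 and Fcer1a at 0.43, which amounted to 3.00% to 5.52% of each gene's UMIs. At a clustering resolution of 1.6, 560 cells led by Epx and Prg2, genes of eosinophil granules, formed a cluster of their own. It held 6 markers of the class and 4 of the eosinophil list among its 50 leading genes, and was left unnamed because more eosinophil than class markers were among its top 10, so it is not in the class at that resolution. With the cluster that had 3 markers of the class added, the class made up 10.2% and 9.64% of cells in the young male and female, 11.7% and 11.6% in the middle-aged, 8.55% and 9.82% in the old and 7.36% and 7.71% in the very old.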
